A study of Mus musculus with 33 samples.

Results

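Cdk1, Birc5, Ttk, Ccnd3 and Tfrc were taken as genes of cell division and of iron uptake by dividing cells, and a gene was a member when an endogenous probe carried its name. Of these 5 genes, 4 had a probe among the 750 endogenous probes of the panel, and no probe named Ttk was found in the files used here. All 4 passed the filter on low counts, which left 655 genes to test. RNA came from total bone marrow of female C57BL/6 wild type mice aged 6 to 8 weeks. Venetoclax, an inhibitor of the survival protein BCL2, was given by gavage once a day and ruxolitinib, an inhibitor of the kinases JAK1 and JAK2, 2 times a day, each for 2 days. The labels give the doses as 100 mg/ml venetoclax and 180 mg/ml ruxolitinib, where the methods give amounts per body weight. Control mice received the vehicle of their drug, which was phosal 50 PG, polyethylene glycol and ethanol for venetoclax, and DMSO, a lighter polyethylene glycol and water for ruxolitinib. Marrow was taken on days 1, 3 and 7 after treatment from 3 drug-treated and 2 vehicle-treated mice per drug and day, and 3 untreated mice completed the 33 mice in 13 groups. No irradiation, transplant or tumour is named in the labels of these mice.

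Cells pass through division under the control of cyclins and their kinases. Cyclin D3, the product of Ccnd3, acts with CDK4 or CDK6 in the first growth phase and is used by blood cell precursors, whereas CDK1 acts with B-type cyclins to start mitosis. Survivin, the product of Birc5, is a subunit of the chromosomal passenger complex that places Aurora B on mitotic chromosomes, and TTK is a kinase of the spindle checkpoint. Tfrc encodes the transferrin receptor, which carries iron into cells and is abundant on red cell precursors and on other dividing cells. Marrow is rich in dividing precursors, so these genes are read in a tissue where much of the signal can come from such cells.

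Each mouse was measured once, in 1 lane of the NanoString nCounter, an assay that counts colour-coded probes bound to RNA without amplification. The instrument was run 3 times with 11 mice each. A run held all treated mice of 1 day plus 1 untreated mouse, so drug and vehicle always shared a run, but day and run cannot be told apart. Endogenous probes gave 18056 to 466096 counts per lane, with a median of 158944. The lane of venetoclax day 1 replicate 1 held 18056 counts and that of ruxolitinib day 3 replicate 1 held 26881, and fitted differences of the members that use them are given with and without them. Counts were scaled by 11 housekeeping probes, and these scaled values are called normalised counts below. Since probes differ in how well they bind, levels of different genes were not compared. In whole marrow, fewer cells of a type and less RNA per cell cannot be told apart.

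Promoters of genes that rise in mitosis often carry CCAAT boxes, bound by the factor NF-Y, and a cell cycle homology region with the letters TTTGAA. These letters were searched on both strands in the 300-base windows that RefSeq gives around the start sites of the 4 genes, on mouse build GRCm38.p6. The windows of Cdk1, Birc5 and Tfrc are shown 5′ to 3′ in the direction of the gene, because Tfrc and Birc5 carry the differences described below and Cdk1 is the mitotic kinase of the group. Capitals mark CCAAT or its reverse complement ATTGG, and TTTGAA or its reverse complement TTCAAA. The windows lie at chr10:69352863-69353162 on the minus strand for Cdk1, chr11:117848987-117849286 on the plus strand for Birc5, and chr16:32608646-32608945 on the plus strand for the first start site of Tfrc.
Cdk1: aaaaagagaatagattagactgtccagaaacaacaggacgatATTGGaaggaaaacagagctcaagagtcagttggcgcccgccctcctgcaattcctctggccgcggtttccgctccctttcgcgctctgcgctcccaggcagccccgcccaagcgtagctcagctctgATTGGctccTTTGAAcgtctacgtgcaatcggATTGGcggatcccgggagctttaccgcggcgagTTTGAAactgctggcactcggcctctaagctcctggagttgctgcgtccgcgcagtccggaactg
Birc5: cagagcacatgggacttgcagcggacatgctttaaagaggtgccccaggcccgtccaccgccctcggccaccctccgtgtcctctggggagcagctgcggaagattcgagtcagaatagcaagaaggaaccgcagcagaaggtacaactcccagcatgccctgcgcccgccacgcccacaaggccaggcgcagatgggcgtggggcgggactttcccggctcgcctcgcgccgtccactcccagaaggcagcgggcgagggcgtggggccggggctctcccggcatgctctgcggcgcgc
Tfrc: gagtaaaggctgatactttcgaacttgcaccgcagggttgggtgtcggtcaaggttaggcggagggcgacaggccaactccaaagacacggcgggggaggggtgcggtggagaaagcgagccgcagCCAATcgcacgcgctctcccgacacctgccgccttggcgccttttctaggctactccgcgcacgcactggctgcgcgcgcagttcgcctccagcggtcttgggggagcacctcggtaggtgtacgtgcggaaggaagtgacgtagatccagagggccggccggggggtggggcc
The Cdk1 window held 3 CCAAT matches and 2 TTTGAA matches, and the Birc5 window held 0 of each. The Tfrc window shown held 1 CCAAT match and 0 TTTGAA matches, and its second window held 0 of each. The 2 windows of Ccnd3 held 0 and 1 CCAAT matches and 0 TTTGAA matches. Among all 32841 promoter windows of this length, 37.4% held CCAAT, 17.9% held TTTGAA and 6.95% held both. A match is a description of letters and not a site.

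Of the 3 members above background in every lane, Tfrc gave the largest fitted differences between drug and vehicle. On day 1 it was lower in every drug-treated mouse than in every mouse given the matching vehicle, and on day 3 it was higher in every ruxolitinib-treated mouse than in either of its vehicle mice. None of these differences passed the adjusted threshold of 0.05. On day 1 after venetoclax the normalised counts were 283, 266 and 269, against 474 and 417 with vehicle. The groups did not overlap, and the 3 drug-treated mice lay close together. The fitted log2 fold change was -0.71 (SE 0.23), which is 1.64-fold lower, with an unadjusted p of 0.00366 and an adjusted p of 0.0999 in edgeR's quasi-likelihood test. Tfrc was 24th of the 655 genes by p in that comparison, in which 0.153% of genes were called. Lower without overlap were 15.7% of all genes tested there. Without the 2 shallowest lanes the log2 fold change was -0.73 (adjusted p 0.161). When the vehicle mice of both drugs were pooled as controls it was -0.67 and passed the threshold, with an adjusted p of 0.0468, where 3.82% of genes were called. That call was lost without the 2 shallowest lanes (-0.69, adjusted p 0.0903).

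Ruxolitinib-treated mice on day 1 had Tfrc counts of 259, 355 and 290, against 441 and 401 with vehicle. Again all treated mice lay below both controls, in a comparison where 16.3% of genes were lower without overlap and 2.75% were called. The log2 fold change was -0.48 (SE 0.22, adjusted p 0.330), and a fit of only those 5 mice gave -0.48 with an adjusted p of 0.0305, where 11.8% of genes were called. The changes by the 2 drugs on day 1 differed by -0.23 on the log2 scale (SE 0.32, adjusted p 0.790), or -0.25 without the 2 shallowest lanes, and this difference between the drugs did not pass the test.

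By day 3 the order had turned in the ruxolitinib arm. Tfrc counts were 550, 641 and 487 after ruxolitinib and 347 and 379 after its vehicle. All 3 treated mice were above both controls, as were 7.63% of all genes, and 0.153% of genes were called. The log2 fold change was 0.63 (SE 0.23), or 1.55-fold higher, with an unadjusted p of 0.00966 and an adjusted p of 0.608. It was 0.64 (adjusted p 0.688) without the 2 shallowest lanes, and 0.70 (adjusted p 0.0443) against the vehicle mice of both drugs, a fit that called 1.53% of genes. This call too was lost without the 2 shallowest lanes (0.72, adjusted p 0.0842). In the venetoclax arm the day 3 counts were 422, 323 and 397, against 348 and 306 with vehicle. Those groups overlapped, and the log2 fold change was 0.22 (SE 0.22, adjusted p 0.779). The changes by the 2 drugs on day 3 differed by -0.41 (SE 0.32, adjusted p 0.999 in edgeR), or -0.42 without the 2 shallowest lanes. This difference between the drugs did not pass the test.

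On day 7 Tfrc was 481, 588 and 728 after venetoclax and 497 and 522 after vehicle. After ruxolitinib it was 481, 626 and 357, and 446 and 441 after vehicle. Drug and vehicle mice overlapped in both arms. The log2 fold changes were 0.24 (SE 0.23, adjusted p 0.999) for venetoclax and 0.16 (SE 0.22, adjusted p 0.999) for ruxolitinib. Untreated mice had 352, 363 and 475, the last of them in the day 7 run.

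**Figure D1:**
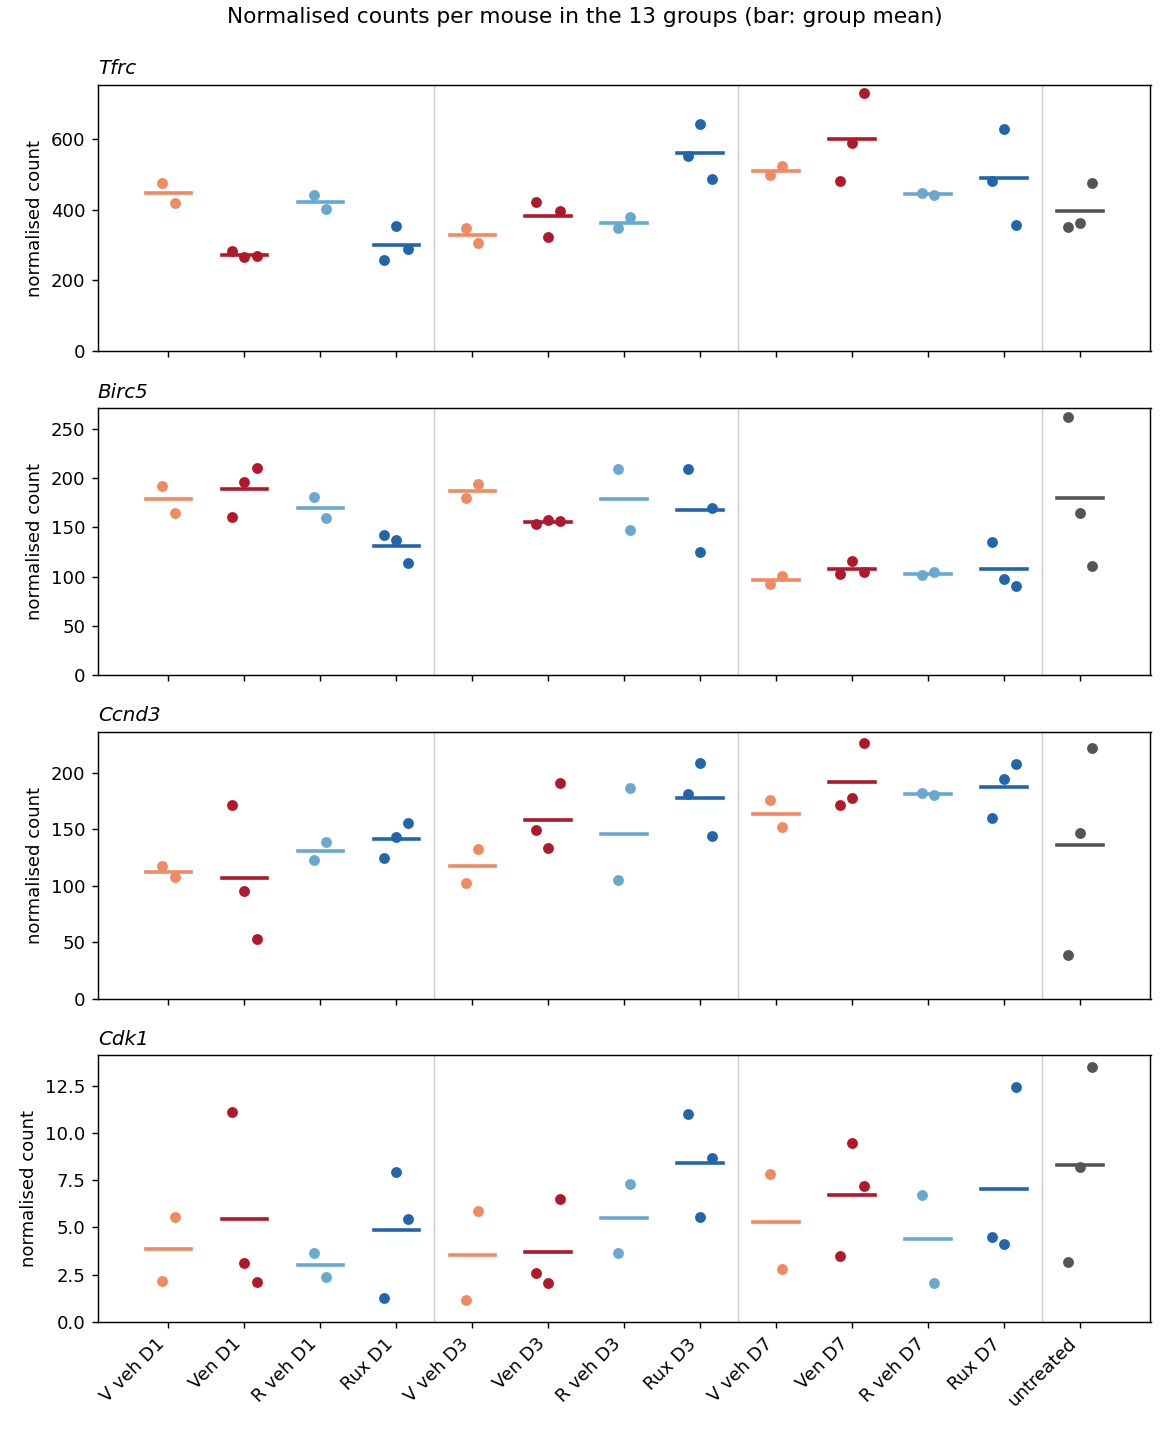
Normalised counts (vertical axes, starting at 0) of Tfrc, Birc5, Ccnd3 and Cdk1 for each mouse (points) and each group (horizontal bars: group means). V veh and R veh are the venetoclax and ruxolitinib vehicles, Ven and Rux the drugs, and D1, D3 and D7 the days. Tfrc was lowest in the venetoclax day 1 group (mean 273) and Birc5 was low in all day 7 groups.

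The change of Tfrc over time was tested as a difference between days within a drug. For venetoclax the day 7 change exceeded the day 1 change by 0.95 (SE 0.32, adjusted p 0.285), or 0.98 without the 2 shallowest lanes, where 0.0% of genes were called. For ruxolitinib the same difference was 0.64 (SE 0.31, adjusted p 0.505), where 1.53% of genes were called. Further differences between days were fitted after the values had been seen. The ruxolitinib change on day 3 exceeded that on day 1 by 1.11 (SE 0.32, unadjusted p 0.00132, adjusted p 0.0963), which ranked Tfrc 9th of 655 genes with 1.07% of genes called. It was 1.12 (adjusted p 0.141) without the 2 shallowest lanes. In a further fit each untreated mouse was held to its own run, as a group of 1. This takes all differences between untreated mice out of the spread within groups, those between runs included, and fits no run effect. In that fit the difference was 1.11 and passed the threshold, but not without the 2 shallowest lanes (1.12). The same difference for venetoclax was 0.93 (SE 0.32, adjusted p 0.392), with 0.305% of genes called, and 0.96 (adjusted p 0.295) without the 2 shallowest lanes. The mean change over the 3 days was near 0 for Tfrc under either drug, at -0.08 (SE 0.13) for venetoclax and 0.10 (SE 0.13) for ruxolitinib, or -0.09 and 0.10 without the 2 shallowest lanes. Across the 13 groups Tfrc ran from 273 ± 8.92 (SD, n = 3) on day 1 of venetoclax to 599 ± 124 (SD, n = 3) on day 7 of venetoclax. Every neighbour in that order overlapped the next in the range of its mice.

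**Figure D2:**
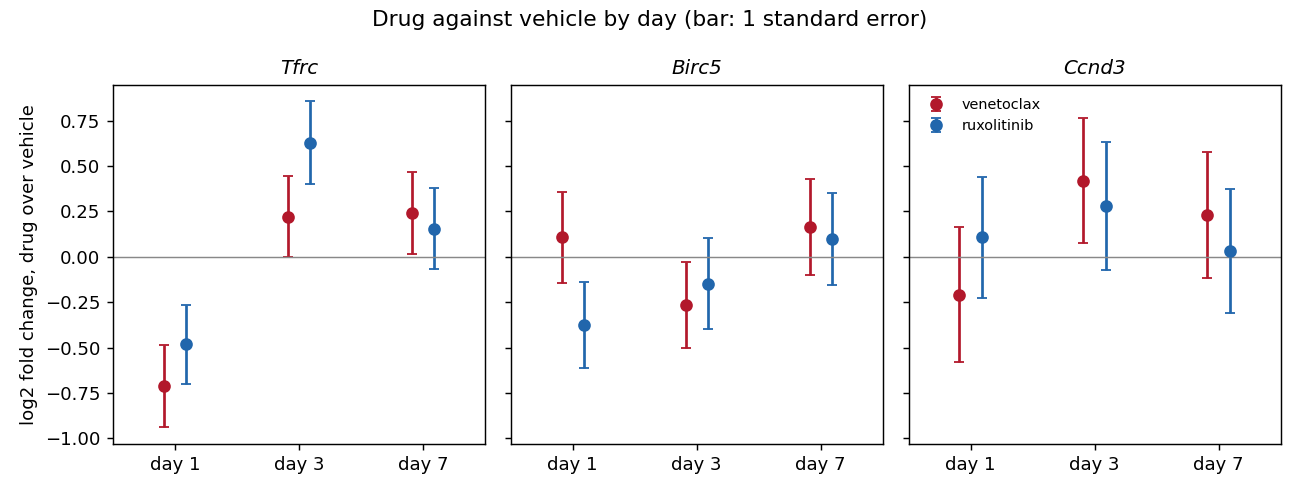
Log2 fold change of drug over vehicle (vertical axis) on days 1, 3 and 7 for Tfrc, Birc5 and Ccnd3, with bars of 1 standard error from the edgeR fit, venetoclax in red and ruxolitinib in blue. Tfrc was below 0 with both drugs on day 1 (-0.71 and -0.48) and furthest above 0 with ruxolitinib on day 3 (0.63).

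Of the 7 markers listed for red cell precursors, 0 had a probe on the panel. Other genes of iron handling and red cells were read from a list of 25, of which 10 had a probe, 1 of them as a housekeeping probe (Alas1) and 1 below background in every lane (Hamp). Of the 8 tested, 0 were called against vehicle for either drug on any day. Their median log2 fold change was -0.36 on day 1 and 0.50 on day 3 of venetoclax, beside -0.02 and 0.06 over all genes tested. With ruxolitinib it was 0.14 on day 1 and 0.23 on day 3, beside 0.13 and 0.02. Cd36, a fatty acid receptor that red cell precursors, platelets and macrophages also carry, was called in 1 of the differences between days. Its counts were 5.55, 14.95 and 23.3 on day 1 of venetoclax, against 54.0 and 35.1 with vehicle, and 38.3, 27.8 and 46.1 on day 3, against 17.3 and 14.7. Venetoclax mice lay below their controls on day 1 and above them on day 3, as 15.7% of all genes did on day 1 and 13% on day 3. The value of 5.55 was a single raw count in the shallowest lane. The day 3 change exceeded the day 1 change by 2.71 on the log2 scale (SE 0.58, adjusted p 0.0321), in a contrast chosen after the values were seen that called 0.305% of genes. Without the 2 shallowest lanes it was 2.59 (adjusted p 0.068) and did not pass, and with 1 mouse left out at a time it passed in 3 of 10 fits (adjusted p 0.0151 to 0.258). Of the 13 alternatives other than leaving out a mouse, it passed in 10 (2.59 to 3.12, adjusted p 0.00524 to 0.166). The 4 tested genes of this list with the most counts were not called on either day of venetoclax. Lcn2, an iron-sequestering protein of neutrophils, differed by -0.43 (SE 0.48) on day 1 and 1.12 (SE 0.50) on day 3. Cd47, which marks cells as self to macrophages, differed by -0.44 (SE 0.25) and 0.42 (SE 0.25). Ltf, the iron-binding protein lactoferrin of neutrophil granules, differed by 0.17 (SE 0.48) and 1.16 (SE 0.43), and Bcl2l1, which encodes the survival protein BCL-XL, by -0.33 (SE 0.30) and 0.59 (SE 0.27).

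Marker lists of other marrow cells were read beside Tfrc. On day 3 of ruxolitinib the summed normalised count of 8 B cell precursor genes was 279 to 462, or 279 to 406 without the shallow lane, against 774 to 878 with vehicle. All 8 had a fitted value below 0, of which Igll1, a part of the precursor B cell receptor, passed the test. Over the mean of days 4 of the 8 were called lower with ruxolitinib, where 1.22% of all genes were called. These were Igll1 (-0.86, SE 0.18), Pax5 (-0.83, SE 0.21), Rag1 (-1.11, SE 0.21) and Il7r (-0.77, SE 0.17). Igll1 was also called lower on day 7 of venetoclax (-1.54, SE 0.31), but 5 of the 8 were above 0 there (median 0.15). The sum of the 8 was 599.0 to 969.5 on that day, against 702.2 to 780.2 with vehicle. On day 1 that sum was 642 to 734 with ruxolitinib and 746 to 830 with vehicle, and 555 to 602 with venetoclax and 594 to 689 with vehicle. None of the 8 was at 0. The sum of 10 genes of granulocyte precursors and neutrophils, most of it S100a8, was 84630 to 96370 on day 3 of ruxolitinib and 69590 to 104700 with vehicle. Gene by gene, 9 of these 10 had a fitted value above 0 on day 3 of ruxolitinib (median 0.25) and 8 of 10 on day 1 (median 0.60), none of them called. On day 1 of venetoclax 6 of 10 were above 0 (median 0.15). Of 6 stem and progenitor cell genes, 5 were below 0 on day 1 of venetoclax (median -0.39), whereas 4 were above 0 on day 1 of ruxolitinib (median 0.33) and 5 on day 3 (median 0.22), again without a call. Of 8 T cell genes, 4 of which were above background in at most 17 of the 33 lanes, 6 were below 0 on day 1 of venetoclax (median -0.27), 6 above 0 on day 1 of ruxolitinib (median 0.52) and 7 below 0 on day 3 (median -0.49). Of 6 NK cell genes, 4 were below 0 on day 1 with either drug (median -0.27 and -0.29), as were 5 on day 3 of ruxolitinib (median -0.25). Both megakaryocyte genes with a probe were below 0 on day 1 of venetoclax (median -0.32), above 0 on day 1 of ruxolitinib (median 0.30) and below 0 on its day 3 (median -0.28). None of the T cell, NK cell and megakaryocyte genes was called there. Over the mean of days of venetoclax, where 2.90% of all genes were called, the T cell genes Cd3d (-0.94, SE 0.23) and Cd8a were called lower. Cd8a was above background in 16 of the 33 lanes, and no fold change is given for counts so near background. On day 3 of venetoclax, where the iron list stood highest, 8 of the 10 granulocyte genes were above 0 (median 0.93), Ltf and Lcn2 being in both lists. All 8 T cell genes were below 0 (median -1.05), 4 of 6 stem and progenitor cell genes were above 0 (median 0.30) and 4 of 8 B cell precursor genes (median -0.01), none of them called. The part of these cells in the values of Tfrc and of the iron list was not tested.

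Birc5 was above background in all 33 lanes, with raw counts of 29 to 465. Its lowest levels were those of day 7, in drug-treated, vehicle-treated and untreated mice alike. The 4 vehicle mice of day 7 had 92.6, 101, 101 and 105 normalised counts, whereas the 4 of day 1 had 192, 165, 181 and 159 and the 4 of day 3 had 180, 195, 209 and 148. No vehicle mouse of day 7 reached the lowest vehicle mouse of the earlier days. The untreated mice had 262 in the day 1 run, 165 in the day 3 run and 111 in the day 7 run. The low value of day 7 was thus also that of a mouse given neither drug nor vehicle. Over all 11 mice of the day 7 run the range was 90.1 to 135, against 114 to 262 in the day 1 run and 125 to 209 in the day 3 run. In a contrast chosen after these values were seen, vehicle mice of day 7 were lower than those of days 1 and 3 by a log2 fold change of -0.84 (SE 0.17, adjusted p 0.000314), 1.80-fold lower. That contrast called 36.6% of all genes, 12.5% as lower, and Birc5 was 61st of 655. Among the other members Ccnd3 differed by 0.45 (SE 0.23, adjusted p 0.123) and Tfrc by 0.30 (SE 0.15, adjusted p 0.118). The median over all genes tested was 0.14 in this contrast, and TMM and total count scaling moved it by -0.18 and 0.24. Birc5 passed the test under each of them, with -1.04 and -0.59, the lowest and the highest of its alternatives. Ccnd3 was 0.26 with TMM and 0.68 with total count scaling, and Tfrc was 0.09 and 0.54. Both passed with total count scaling, where 36.8% of genes were called.

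**Figure D3:**
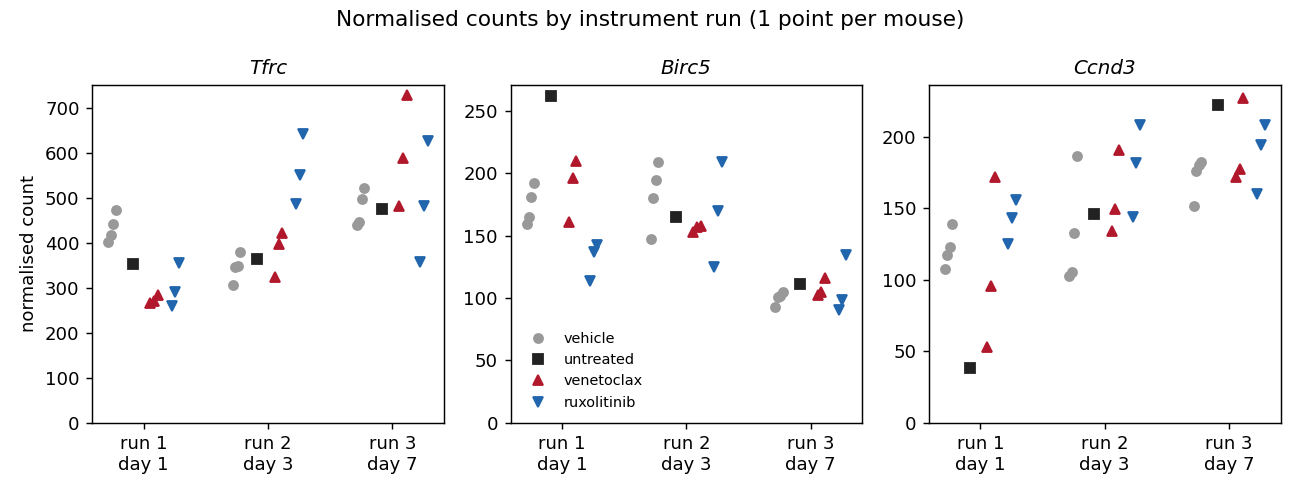
Normalised counts (vertical axes, starting at 0) of Tfrc, Birc5 and Ccnd3 in the 3 instrument runs, each of which held 1 day and 1 untreated mouse, with 1 point per mouse and the treatment given by colour and shape. All 11 Birc5 values of the day 7 run lie between 90.1 and 135, below the vehicle mice of days 1 and 3 (148 to 209), while drug-treated mice of those days reach down to 114 and 125.

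Within a day, no difference of Birc5 between drug and vehicle passed the test. On day 1 of ruxolitinib it was 143, 137 and 114, against 181 and 159 with vehicle. All treated mice were below both controls, as were 16.3% of all genes, and 2.75% were called. The log2 fold change was -0.37 (SE 0.24, adjusted p 0.536). On day 1 of venetoclax it was 161, 196 and 210, against 192 and 165, and these overlapped, with a log2 fold change of 0.11 (SE 0.25), or 0.18 without the 2 shallowest lanes. The 2 drugs' changes on day 1 differed by 0.48 (SE 0.34, adjusted p 0.547), or 0.56 without those lanes, where 1.68% of genes were called. On day 3 of venetoclax Birc5 was 153, 158 and 157, against 180 and 195, lower without overlap as were 13.1% of all genes. The log2 fold change was -0.27 (SE 0.24, adjusted p 0.730), in a comparison that called 0.0% of genes. On day 7 of venetoclax it was 102, 116 and 105, against 92.6 and 101, higher without overlap as were 6.56% of all genes, with a log2 fold change of 0.16 (SE 0.26, adjusted p 0.999) and 0.153% of genes called. Ruxolitinib mice overlapped their controls on day 3 (209, 125 and 170, against 209 and 148) and on day 7 (135, 98.1 and 90.1, against 101 and 105). On day 3 the log2 fold change was -0.15 (SE 0.25, adjusted p 0.998), and -0.29 (SE 0.26, adjusted p 0.931) without the 2 shallowest lanes. Taking the 3 untreated mice, 1 from each run, as controls would have made Birc5 lower on day 7 with venetoclax (-0.73, adjusted p 0.0400) and with ruxolitinib (-0.70, adjusted p 0.0428), in fits that called 10.1% and 13.3% of genes. Against the vehicle mice of their own run the same drug-treated mice differed by 0.16 and 0.10.

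Ccnd3 had its highest vehicle mean on day 7, and its difference there from days 1 and 3, given above, did not pass the test. It passed when each untreated mouse was held to its own run (0.45). That fit leaves the wide spread of the untreated mice (SD 92.5, n = 3) out of the error. The 4 vehicle mice averaged 122 ± 13.1 (SD, n = 4) on day 1, 132 ± 38.9 on day 3 and 173 ± 14.2 on day 7. Untreated mice had 38.4, 146 and 223 in the 3 runs, the first of them from 12 raw counts. No drug group was called, and 1 of the 6 groups was free of overlap with its vehicle. That was day 3 of venetoclax, with 150, 134 and 191 against 103 and 133. The log2 fold change there was 0.42 (SE 0.34, adjusted p 0.688), and 13% of all genes were higher without overlap. On day 1 of venetoclax the mice were spread widely, at 172, 95.3 and 53.0 against 118 and 108 with vehicle. The highest of them came from the shallowest lane, with 31 raw counts, and without the 2 shallowest lanes the log2 fold change was -0.53 (adjusted p 0.714) in place of -0.21 (SE 0.37, adjusted p 0.901). In the ruxolitinib arm Ccnd3 was 125, 143 and 156 on day 1 against 123 and 139, and 182, 209 and 144 on day 3 against 105 and 187. The day 3 log2 fold change was 0.28 (SE 0.35), and 0.27 without the 2 shallowest lanes. On day 7 all 10 drug-treated and vehicle-treated mice lay between 152 and 227. The spread within groups was 28% of the mean for Ccnd3, wider than the 21.6% of Birc5 and the 16.8% of Tfrc, where counting alone would give 8.61%, 7.41% and 4.77% at the median raw count. Without the untreated mice, which come from different runs, it was 21.1%, 15.4% and 16.8%, so that Birc5 then varied slightly less than Tfrc.

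Cdk1 was near background. Raw counts ran from 1 to 23 with a median of 4, and 16 of the 33 lanes were above background, which is the mean plus 2 SD of the negative control probes. Group means of the normalised count were 3.03 to 8.41, and every group overlapped the next in order. Drug-treated and vehicle mice overlapped on every day, for example 11.01, 5.54 and 8.68 on day 3 of ruxolitinib against 3.67 and 7.30. No difference in Cdk1 passed the test, and no fold change is given for counts so near background.

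Over the 15 comparisons that the design implies, 0 of the 4 members were called by edgeR, by DESeq2 or by limma on log2 values. At an unadjusted p under 0.05, 4 of 60 values passed, all of them for Tfrc, beside 7.69% of all gene values in those comparisons. The adjusted threshold called 2.90% of all genes over the mean of days for venetoclax and 1.22% for ruxolitinib. Venetoclax against ruxolitinib, as a difference of changes, called 0.153% on day 3 and 0.305% on day 7, and the ruxolitinib change on day 7 minus day 1 called 1.53%. Between the 2 vehicles it called 0.0%. Over the 6 comparisons of a drug with its vehicle, 7 of 24 member values were free of overlap (29.2%), beside 970 of 3930 over all genes tested (24.7%). That share is near the background. Vehicle against untreated mice gave no call for a member, with log2 differences of -0.28 (SE 0.18) for Birc5, 0.04 (SE 0.26) for Ccnd3 and 0.07 (SE 0.16) for Tfrc. In that contrast 0.0% of genes were called. The 3 untreated mice come from 1 run each, so differences between runs enter their spread. With each held to its own run, as a group of 1, the differences were -0.21 for Birc5, 0.39 for Ccnd3 and 0.07 for Tfrc. There the log levels of the 3 mice were averaged, and the spread between them was not measured. For Ccnd3 the lowest of these levels rested on 12 raw counts.

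The wider cell cycle was read from a list of 45 genes, of which 9 had a probe: Abl1, Anp32b, Atm, Cdkn1a, Egr1, Myc, Smad3, Tgfb1 and Trp53. Mki67, Top2a and Plk1 were listed but had no probe. The 9 include genes that restrain growth, such as Tgfb1, so their medians do not measure division. None of the 9 was called against vehicle for either drug on any day. Their median log2 fold change was 0.46 on day 1 of venetoclax with 7 of 9 above 0, -0.29 on day 3 with 7 of 9 below 0, and 0.06 on day 7 with 7 of 9 above 0, beside -0.02, 0.06 and -0.01 over all genes tested. With ruxolitinib it was -0.21, -0.25 and -0.17 on days 1, 3 and 7, with 5, 7 and 8 of 9 below 0, beside 0.13, 0.02 and 0.02. In the vehicle mice of day 7 against days 1 and 3, 4 of the 9 were called lower and 1 higher, Tgfb1, a growth-restraining cytokine, where 12.5% of all genes were called lower and 24.1% higher. Anp32b, a nuclear protein that binds histones, was lower there by a log2 fold change of -0.82 (SE 0.20, adjusted p 0.0014). Trp53, the p53 tumour suppressor, was lower by -1.07 (SE 0.27, adjusted p 0.00242). Of the 8 tested genes of iron handling and red cells all had a fitted value above 0 (median 0.49) and 4 were called higher, which were Lcn2 (1.66, SE 0.31), Ltf (1.10, SE 0.28), Cd47 (0.73, SE 0.16) and Cd163 (0.71, SE 0.22), a haemoglobin receptor of macrophages. The cell type lists are read against the same shares. All 10 genes of granulocyte precursors and neutrophils were called, 8 higher and 2 lower. Mpo, myeloperoxidase of early granulocytes, differed by 1.84 (SE 0.28) and S100a8, a calcium-binding protein of mature neutrophils, by -1.0 (SE 0.24). Of 6 stem and progenitor cell genes 5 were called higher, and of 8 B cell precursor genes 3 were called higher and 3 lower. Also called were 1 of 8 T cell genes (Cd3g, higher), 2 of 6 NK cell genes (Klrd1 and Klrk1, higher) and 1 of 2 megakaryocyte genes (Itgb3, lower). The summed count of the granulocyte list, most of it S100a8, was 57900 to 69390 in the vehicle mice of day 7 and 69590 to 111500 in those of days 1 and 3. Gene by gene, the median log2 fold change of that list was 1.17, so the sum and most of its genes went opposite ways. The part of these cell types in the lower Birc5 was not tested.

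Birc5 and Ccnd3 ran in opposite directions across mice. Over the 33 mice Pearson's r of log2(normalised count + 1) was -0.732 and Spearman's rho -0.738, each with a permutation p of 1e-05, the smallest that 100000 resamples can give, and an adjusted p of 6e-05 over 6 pairs. These permutations exchanged all 33 mice freely, so for this pair and those below the p-values take no account of differences between runs, and the values within runs and within groups stand beside them. Without the 2 mice farthest from the median Birc5 level r was -0.669. These were the untreated mouse of the day 1 run (262) and ruxolitinib day 7 replicate 3 (90.1). Within the runs of days 1, 3 and 7 it was -0.832, -0.586 and -0.246, 11 mice each, so the relation was weak in the day 7 run, where Birc5 varied little. Of the 3 runs it passed in that of day 1 alone (adjusted p 0.00228), and on deviations from the group means r was -0.784. The untreated group spans the runs, so that value still holds a difference between runs, and without the untreated mice it was -0.576 over 30 mice. It was -0.598 after scaling by edgeR's TMM method. The mice at the far end were the untreated mouse of the day 1 run, with Birc5 at 262 and Ccnd3 at 38.4, and venetoclax day 1 replicate 3, with 210 and 53.0. The latter was kept in the r of -0.669.

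**Figure D4:**
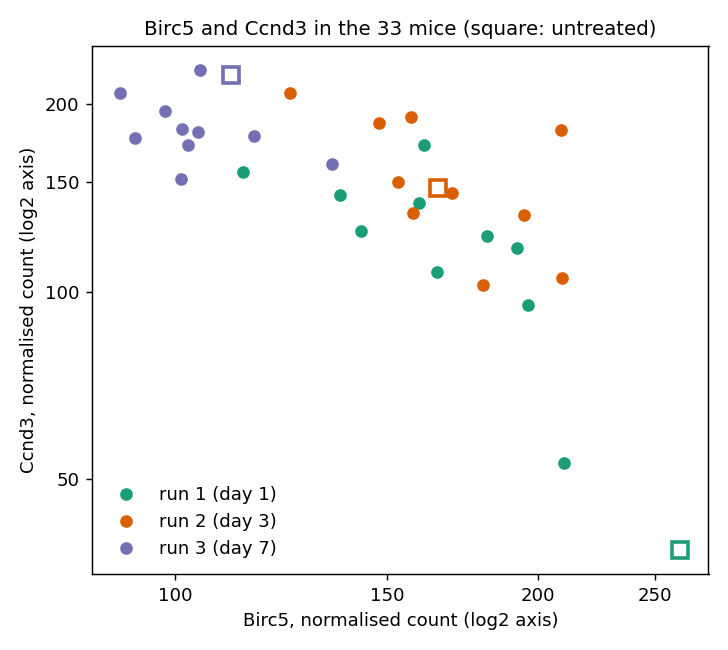
Normalised counts of Birc5 (horizontal, log2 axis) and Ccnd3 (vertical, log2 axis) in the 33 mice, coloured by run, with untreated mice as open squares. Mice of the day 7 run lie at the upper left, and the untreated mouse of the day 1 run lies at the lower right with 262 and 38.4.

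Of the other pairs, Ccnd3 with Tfrc and Cdk1 with Ccnd3 had a positive r in every run, and the rest changed sign. No other pair passed the test within a run. Ccnd3 and Tfrc gave r 0.526 (rho 0.607, permutation p 0.00125 and 0.00032, adjusted 0.0025 and 0.00096; 0.556 without the 2 farthest mice), but 0.087, 0.660 and 0.154 within the runs and 0.246 within groups without the untreated mice. Birc5 and Tfrc gave -0.457 (rho -0.472, permutation p 0.00747 and 0.00607, adjusted 0.0112 and 0.00911; -0.511 without the 2 farthest mice), and 0.165, -0.361 and 0.211 within the runs and -0.072 within groups without the untreated mice. That pooled relation was not held within runs. Cdk1 and Ccnd3 gave 0.520 (rho 0.571, permutation p 0.00107 and 0.00066, adjusted 0.0025 and 0.00132; 0.511 without the 2 farthest mice), and 0.406, 0.627 and 0.624 within the runs and 0.592 within groups without the untreated mice, with Cdk1 near background. Cdk1 did not pass with Birc5 (r -0.275, permutation p 0.122, adjusted 0.122) or Tfrc (r 0.282, permutation p 0.113, adjusted 0.122). No member followed the depth of its lane closely, with r against log2 total counts of -0.196 to 0.110.

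Among tested genes that averaged 20 or more normalised counts, those most like a member over the 33 mice were named by Pearson's r, as a description. All of them share lanes, runs and housekeeping scaling with the member. Birc5 was most like Tnfrsf14 (r 0.924), the receptor HVEM, Anp32b (0.921) and Itch (0.872), a ubiquitin ligase. Within the day 7 run these were 0.694, 0.769 and -0.294. Its strongest opposite was Ctss (-0.920), a lysosomal protease of myeloid cells. Ccnd3 was most like Ebi3 (0.900), a cytokine subunit, Jak1 (0.892), one of the kinases that ruxolitinib inhibits, and Lamp1 (0.880), a lysosomal membrane protein. Its strongest opposite was Anp32b (-0.865), the gene that was among the nearest to Birc5. Within the runs of days 1, 3 and 7, Ebi3 gave 0.929, 0.793 and 0.773 and Jak1 0.958, 0.606 and 0.47. Lamp1 gave 0.808, 0.943 and 0.719 there, and Anp32b -0.886, -0.953 and -0.282. Tfrc was most like Isg20 (0.789), an exonuclease, with 0.898, 0.724 and 0.917 within the runs. Next were Cd47 (0.751) and Jak2 (0.736), the other kinase that ruxolitinib inhibits, which carries the erythropoietin signal, with 0.523, 0.670 and 0.460 for Cd47 and 0.383, 0.775 and 0.469 for Jak2 within the runs. Its strongest opposite was Tfeb (-0.751), a transcription factor of lysosomal genes, with -0.259, -0.890 and -0.302 within the runs. Cdk1 was most like Hsd11b1 (0.659), Runx1 (0.622) and Ltf (0.608), with Irf2 (-0.561) as its strongest opposite, but most Cdk1 counts were near background.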

How the data were processed

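Bone marrow RNA of 33 mice was measured on the NanoString nCounter, 1 lane per mouse. The deposited values are raw counts per probe, exported by the authors without normalisation, for 750 endogenous, 20 housekeeping, 8 negative and 6 positive control probes. The authors' own analysis with nCounter Advanced Analysis (version 2.0.115) is not in these counts. The methods and the design text name different mouse panels of immune genes. The files of the day 3 mice carry Day 2 in their headers, and the day of the labels was used. Groups were taken from the sample labels.

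Lanes were scaled to a common geometric mean of 11 housekeeping probes, those above background in all 33 lanes. Background was set in each lane from its negative control probes, at 2 SD over their mean (1.83 to 7.85 counts, median 4.83). A gene above it in 2 or more lanes was kept, and the 655 kept genes were fitted with edgeR 4.0.16 (R 4.3.3, quasi-likelihood test), with 13 group means in 1 model and 20 residual degrees of freedom, adjusted by the Benjamini-Hochberg method over all 655 genes. Groups of 3 mice against 2 limit the precision, as does counting error at low counts. Correlations used log2(normalised count + 1) and two-sided permutation tests with 100000 resamples in Python 3.11.15. DESeq2 1.42.0, limma 3.58.1, other scalings, filters, controls and left-out mice were tried as alternatives. The test was tried on simulated counts first.

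The members, gene lists and comparisons were chosen with earlier results of these data known. Genes named are the members, list genes that passed the test or up to 4 of a list with the highest mean count, and for each member the 3 tested genes with the highest r, with their strongest opposite added after the values were seen. A fit with each untreated mouse held to its own run, the contrast of vehicle mice between days and 4 of the differences between days were also added after the values were seen. Promoter windows were read from RefSeq for GRCm38.p6, and all 4 members with a probe matched.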

Additional observations from a re-analysis of the deposited data

Results flagged for a closer look

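Tfrc in the ruxolitinib arm lay below both vehicle mice in all 3 treated mice on day 1 and above both vehicle mice in all 3 on day 3. Lower without overlap on day 1 were 16.3% of all genes, and higher without overlap on day 3 were 7.63%. The difference between the 2 changes was 1.11 on the log2 scale (SE 0.32, edgeR adjusted p 0.0963), fitted after the values had been seen, and ran from 0.92 to 1.26 over the alternatives with adjusted p-values of 0.0347 to 0.536.

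Birc5 in the venetoclax arm lay below both vehicle mice in all 3 treated mice on day 3 and above both in all 3 on day 7. Lower without overlap on day 3 were 13.1% of all genes, and higher without overlap on day 7 were 6.56%. The difference between the 2 changes was 0.43 (SE 0.36, edgeR adjusted p 0.999), also fitted after the values had been seen.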

How the results depend on the processing

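Of 369 values of Birc5, Ccnd3 and Tfrc under alternatives other than leaving out a mouse, 353 kept their direction and their side of the threshold, 10 passed it newly in the same direction and 6 turned direction. The 6, of which the 2 of Birc5 with untreated controls also passed the threshold, were Tfrc on day 3 of venetoclax (-0.052) and Birc5 on day 7 of venetoclax (-0.73) and ruxolitinib (-0.70) with untreated mice as control, Birc5 (-0.044) and Ccnd3 (-0.12) on day 7 of ruxolitinib with total count scaling, and Ccnd3 there with the replicate number as a block (-0.034). The number of members called went from 0 to 1 with pooled vehicles for venetoclax on day 1 and ruxolitinib on day 3, with only the groups compared for ruxolitinib on day 1, with untreated controls for each drug on day 7, and with all 20 housekeeping probes and with each untreated mouse held to its own run (added after the values were seen) for the ruxolitinib change on day 3 minus day 1 (Tfrc, 1.26 and 1.11). Without the 2 shallowest lanes the calls of Tfrc with pooled vehicles, with all housekeeping probes (1.25, adjusted p 0.0568) and with runs held were lost, in fits also added after the values were seen. For vehicle mice of day 7 against days 1 and 3 it went from 1 to 3 with total count scaling (Ccnd3 0.68, Tfrc 0.54) and with only the groups compared, to 2 with each untreated mouse held to its own run (Ccnd3 0.45), and to 2 without ruxolitinib vehicle day 3 replicate 2, where Ccnd3 was 0.57 (adjusted p 0.0498); without a mouse the count ran from 1 to 2.

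With each mouse left out in turn, 9 of 166 values turned direction. The ranges were -0.0007 to 0.22 for Birc5 and -0.53 to 0.11 for Ccnd3 on day 1 of venetoclax, -0.39 to 0.12 for Birc5 and -0.060 to 0.76 for Ccnd3 on day 3 of ruxolitinib, and -0.11 to 0.19 for Birc5, -0.030 to 0.14 for Ccnd3 and -0.066 to 0.32 for Tfrc on day 7 of ruxolitinib. None of these was called. The mice whose absence turned a direction were ruxolitinib vehicle day 3 replicate 1 (Birc5 0.12 and Ccnd3 -0.060), ruxolitinib day 3 replicate 2 (Birc5), venetoclax vehicle day 1 replicate 2 (Birc5), venetoclax day 1 replicate 3 (Ccnd3), and ruxolitinib day 7 replicates 1 (Birc5), 2 (Ccnd3 and Tfrc) and 3 (Ccnd3). In the comparisons of a drug with its vehicle the number of genes called ran from 0 to 25 for venetoclax on day 1 (1 in the fit reported), 0 to 66 on day 7 (1), 4 to 77 for ruxolitinib on day 1 (18), 0 to 10 on day 3 (1) and 0 to 87 on day 7 (1), and for venetoclax on day 3 from 0 to 2 (0). It ran from 7 to 26 for the mean of days of venetoclax (19), 0 to 20 for that of ruxolitinib (8), 0 to 61 for the drug difference on day 1 (11), 1 to 21 for the ruxolitinib change on day 7 minus day 1 (10), 0 to 6 for vehicles against untreated mice (0), 0 to 2 and 0 to 3 for the drug difference on days 3 (1) and 7 (2), 0 to 1 between the vehicles (0), and 136 to 270 for vehicle mice of day 7 (240). For the change on day 3 minus day 1 it ran from 0 to 3 for venetoclax (2) and 0 to 8 for ruxolitinib (7), and for that on day 7 minus day 3 from 0 to 1 for either (1). The highest counts on day 7 came with untreated controls. The cause of these changes was not tested.

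Replicate numbers are shared between groups, but the mice are different animals and the deviations of same-numbered mice correlated between -0.35 and 0.47. With the replicate number as a block, 0 members were called against vehicle, and the count of genes called on day 1 of ruxolitinib was 15.

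For the correlations, Birc5 with Tfrc fell to -0.162 with TMM scaling. Within the runs of days 1, 3 and 7 it was 0.165, -0.361 and 0.211; Cdk1 with Ccnd3 was 0.406, 0.627 and 0.624, and Ccnd3 with Tfrc 0.087, 0.660 and 0.154. Birc5 with Ccnd3 was -0.586 and -0.246 in the runs of days 3 and 7, Cdk1 with Birc5 0.062 on day 3 and Cdk1 with Tfrc -0.111 on day 7. With 11 mice a run, none of these passed. Depth limits Cdk1 most, with 4 raw counts in the median lane.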
